A study of Mus musculus with 12 samples.

Results

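The genes described here are 10 markers of the alveolar fibroblast, a resident fibroblast of the gas-exchange wall: Inmt, Itga8, Npnt, Tcf21, Wnt2, Ces1d, Limch1, Fgf10, Pdgfra and Fgfr4. They were picked by symbol, as known markers, from the 55491 entries of the gene tables; no threshold on measured values was used, but earlier results of these data were known when the list was drawn up. Polyadenylated RNA was sequenced from whole lung homogenates of male wild-type (WT) C57BL/6J mice labelled as 10 weeks old. All 12 mice had received bleomycin, a drug that injures the lung and causes fibrosis, given into the back of the mouth to be breathed in, at a dose of 0.0125 U a mouse or roughly 0.5 U/kg. A group of 4 mice was taken at day 14 with no treatment after bleomycin. A second group of 4, taken at day 21, carried the label Vehicle, which is phosphate-buffered saline. The last 4, also taken at day 21, had received nanoparticles (NP) with a poly(lactide-co-glycolide) (PLG) core and a poly(ethylene-alt-maleic anhydride) (PEMA) surface, and measured 609.22 ± 15.30 nm across on average. Particles were injected behind the eye into the bloodstream at 2 mg a dose, once daily from day 14 to day 18, which made 5 doses. No lungs without bleomycin were analysed here, so day 14 is the reference for time and vehicle the reference for the particles, and time and injections cannot be told apart in a comparison with day 14.

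Alveolar fibroblasts sit beside the alveolar epithelium and the capillaries, where they lay down basement membrane and elastic matrix and send growth signals such as Wnt and FGF ligands to epithelial progenitors. After bleomycin, fibroblasts of this lineage are known to be a source of the collagen-producing cells of the scar. None of the 10 genes is restricted to fibroblasts in every tissue, and Limch1 and Npnt, among others, are also transcribed by other lung cells. In RNA from whole lung, fewer cells of a type and less RNA per cell cannot be told apart.

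Day 14 libraries held 25706260 to 42714693 counts each. Those of vehicle lungs held 28001006 to 36208498, and those of nanoparticle lungs 24138582 to 28910459. The surfactant protein gene Sftpc, which marks lung tissue, averaged 11486 CPM (counts scaled to library size) at day 14, and the other alveolar and capillary markers were present in all groups. All 10 members passed the filter on low counts, with at least 234 counts in every library. Day 14 mouse 2 and nanoparticle mouse 3 stood apart from the rest of their groups: the chi-square per degree of freedom between gene counts was 25.6 to 33.1 in pairs with the first and 23.4 to 27.9 in pairs with the second, against 7.95 to 19.6 in all other pairs of the same group. For the called genes, and for others whose estimate moved most, values without these libraries are given too.

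The members spanned a wide range of abundance. On the TPM scale, which corrects for transcript length as well as library size and allows levels of different genes to be compared, Inmt had a mean of 1475 over the 12 libraries, 51.4% of the summed level of the 10, and ranked 53 among all genes. Inmt encodes indolethylamine N-methyltransferase, which methylates tryptamine and related amines. Ces1d (mean 429 TPM) and Npnt (389 TPM) followed and changed places between libraries, Ces1d being higher in 9 of 12. Limch1 (303 TPM) and Tcf21 (108 TPM) were next, each above the gene that follows it in all 12. Itga8 (77.1 TPM) exceeded Pdgfra (62.6 TPM) in 9 of 12 libraries. Fgfr4 (12.5 TPM), an FGF receptor gene, and the secreted signals Wnt2 (7.75 TPM) and Fgf10 (6.84 TPM) were the least abundant, and Wnt2 exceeded Fgf10 in 10 of 12. The order of neighbours was not tested, and it could differ by group. With vehicle, Itga8 (77.42 to 92.82 TPM) lay wholly above Pdgfra (52.25 to 72.38 TPM). Their ranges overlapped at day 14 and with nanoparticles.

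From day 14 to day 21 without particles, 3 of the 10 genes rose and none fell: Inmt, Itga8 and Limch1. The threshold was an adjusted p under 0.05 in edgeR's quasi-likelihood test, with Benjamini-Hochberg adjustment over 17909 genes. Over all genes tested, 3.79% were called higher and 6.51% lower in this comparison. The estimate was above 0 for all 10 members, with a median log2 fold change of 0.29 against 0.0031 over all genes, of which 50.6% were above 0. The vehicle and day 14 groups did not overlap, with vehicle higher, for 3 of the 10 members, against 7.2% of all genes. In the nanoparticle group against the same day 14 libraries, 3 of the 10 were called higher and none lower, beside 6.16% of all genes called higher and 8.56% lower. The median of the members was 0.26 against 0.0062 over all genes. Groups did not overlap, with nanoparticle higher, for 4 of the 10, against 8.47% of all genes. Since the day 14 libraries serve both comparisons, their values are set side by side and are not 2 independent observations.

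**Figure D1:**
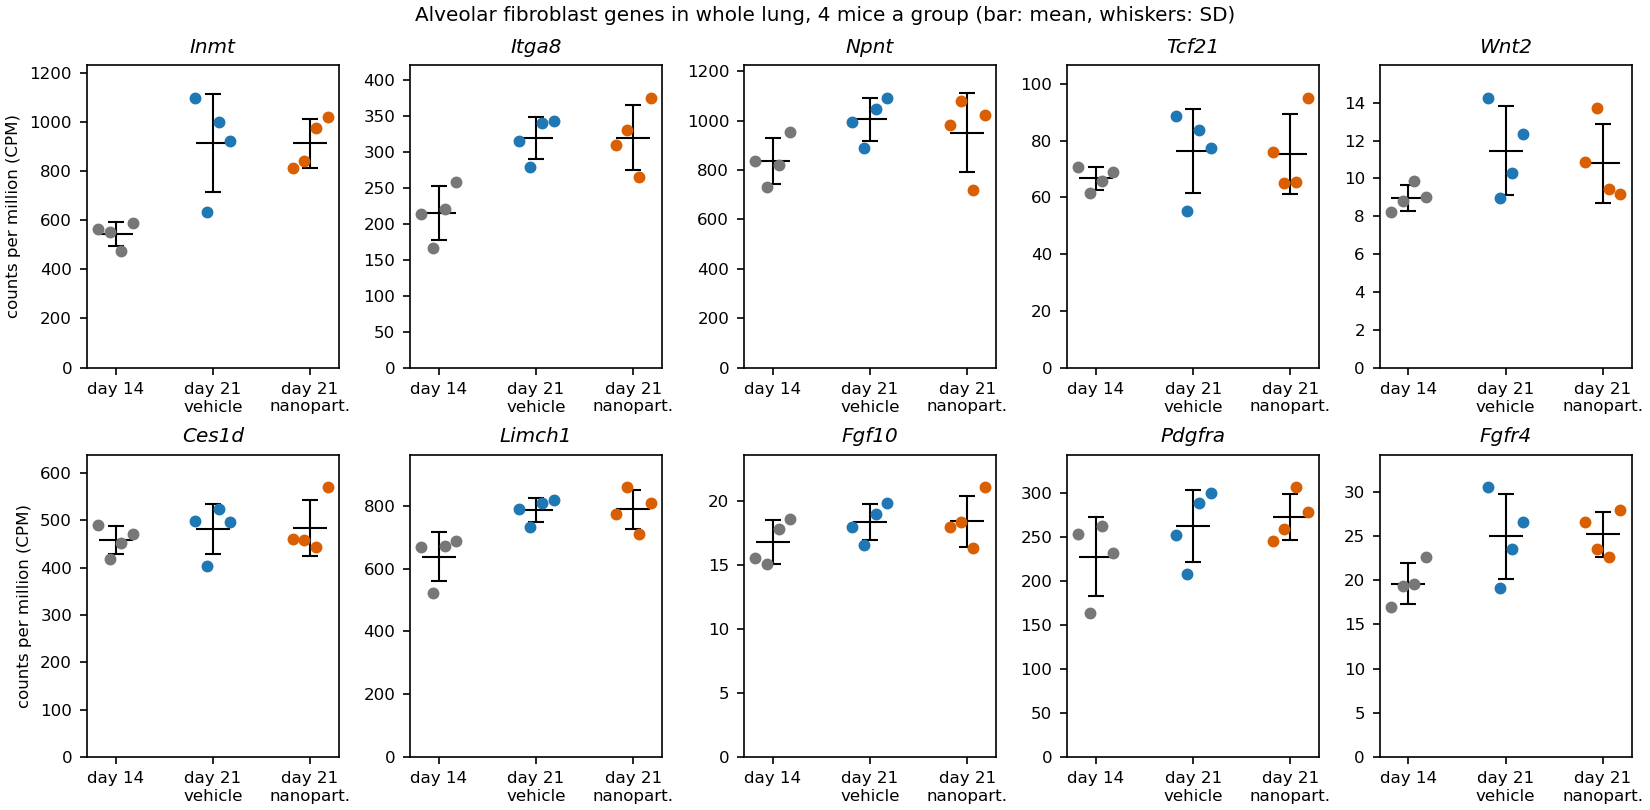
CPM (vertical axis, from 0) of each of the 10 genes in each of 12 lungs, by group (horizontal axis); points are mice, horizontal bars group means and whiskers the SD (n = 4). For Inmt, the day 14 lungs sit between 474 and 590 CPM and all 8 day 21 lungs at or above 635 CPM.

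Inmt was the most abundant member and had the largest change of the 10 in both comparisons with day 14. The day 14 lungs held 563, 550, 474 and 590 CPM, the vehicle lungs 1099, 635, 999 and 922 CPM, and the nanoparticle lungs 814, 840, 975 and 1022 CPM. All 8 day 21 lungs lay above all 4 day 14 lungs, and vehicle mouse 2 was the lowest of the 8. The group means were 544 ± 49.6 CPM at day 14, 914 ± 199.6 CPM with vehicle and 913 ± 101 CPM with nanoparticles (SD, n = 4 each). The fold was 1.68 in vehicle against day 14 (95% confidence interval 1.36 to 2.07; log2 fold change 0.75, SE 0.14; edgeR adjusted p = 0.0072). In nanoparticle against day 14 the log2 fold change was 0.75 (SE 0.14; edgeR adjusted p = 0.00481). Leaving out day 14 mouse 2 gave 0.76 in both (edgeR adjusted p = 0.0185 and 0.0136). Leaving out nanoparticle mouse 3 gave 0.76 and 0.72 (edgeR adjusted p = 0.00606 and 0.00869). Because Inmt moved more than the rest, its share of the summed TPM of the 10 genes was 41.3% to 49.2% at day 14, 48.6% to 57.6% with vehicle and 50.9% to 59.3% with nanoparticles.

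Itga8 encodes integrin alpha 8, which pairs with integrin beta 1 into a receptor for nephronectin and other matrix proteins. The day 14 lungs held 213, 167, 221 and 258 CPM, the vehicle lungs 315, 279, 339 and 343 CPM, and the nanoparticle lungs 309, 330, 265 and 375 CPM. Neither day 21 group overlapped day 14, although nanoparticle mouse 3, at 265 CPM, was close to the highest day 14 lung. The fold was 1.49 in both comparisons with day 14 (log2 fold change 0.57, SE 0.13; edgeR adjusted p = 0.0147 with vehicle and 0.0107 with nanoparticles). Without day 14 mouse 2, the lowest lung, the log2 fold change was 0.48 in both, with edgeR adjusted p of 0.0239 and 0.0181.

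Limch1 encodes a protein with LIM and calponin homology domains that binds non-muscle myosin II and acts on stress fibres. The day 14 lungs held 671, 521, 672 and 689 CPM, the vehicle lungs 790, 735, 809 and 819 CPM, and the nanoparticle lungs 776, 861, 711 and 810 CPM. Every day 21 lung was above every day 14 lung, but by a small margin: the highest day 14 value was 689 CPM and the lowest at day 21 was 711 CPM. The log2 fold change was 0.30 in vehicle against day 14 (SE 0.09; edgeR adjusted p = 0.0457) and 0.31 in nanoparticle against day 14 (SE 0.09; edgeR adjusted p = 0.0364). Both values are near the threshold: the call was lost in 12 of 20 alternative analyses of the first comparison and in 8 of 20 of the second, with the direction kept in all of them. Day 14 mouse 2 lay far below the other 3, and without it the log2 fold change was 0.23 in both comparisons (edgeR adjusted p = 0.0451 and 0.0377).

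The 5′ flanks of the 3 genes that rose are shown because they are the members that passed the threshold. The sequences are RefSeq promoters of build GRCm38.p6, written 5′ to 3′ on the gene's strand and ending 1 base before the annotated start site: 250 bases for Inmt (chr6:55174991-55175240, minus strand) and 150 bases each for Itga8 (chr2:12301945-12302094, minus strand) and the first of 3 Limch1 starts (chr5:66745739-66745888, plus strand). Capitals mark a TATA box (TATAAA), an E-box (CAGCTG) or a GC box (GGGCGG), on either strand.
Inmt: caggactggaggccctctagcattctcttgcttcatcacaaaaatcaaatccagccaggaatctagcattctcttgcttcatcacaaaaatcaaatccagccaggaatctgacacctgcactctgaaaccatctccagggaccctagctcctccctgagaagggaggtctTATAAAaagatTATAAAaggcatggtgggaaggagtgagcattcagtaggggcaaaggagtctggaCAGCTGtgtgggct
Itga8: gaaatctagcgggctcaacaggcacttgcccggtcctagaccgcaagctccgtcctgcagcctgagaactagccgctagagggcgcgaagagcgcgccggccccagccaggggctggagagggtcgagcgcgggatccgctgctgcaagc
Limch1: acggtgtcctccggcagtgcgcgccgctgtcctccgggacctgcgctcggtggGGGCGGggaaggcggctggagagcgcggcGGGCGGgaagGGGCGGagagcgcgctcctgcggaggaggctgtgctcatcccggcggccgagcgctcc

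The 3 flanks differ in their letters. Inmt has a TATA box at 80 and another at 69 bases upstream of the RefSeq start. These are 27 and 16 bases upstream of the start in the GENCODE annotation. An E-box lies 14 bases upstream of the RefSeq start, which is 39 bases inside the gene as GENCODE annotates it. A stretch of 49 bases occurs a second time in the Inmt flank, 46 bases downstream of the first copy, so that the copies overlap at their ends. The Limch1 flank holds GC boxes at 97, 68 and 58 bases upstream of the RefSeq start, the last of them 4 bases inside the GENCODE gene. None of the 6 motifs searched was in the Itga8 window. In the 250 bases upstream of all 32851 promoters in the table, 12.4% held the TATA box, 13% the E-box, 32.7% the GC box, 33.8% a CCAAT box (CCAAT), 3.17% a forkhead motif (TGTTTAC) and 17.1% the SMAD motif (CAGACA). Of the 9 members with a promoter entry, 2, 1, 5, 2, 2 and 0 held these in the same order at any of their listed starts, of which Limch1 has 3 and Npnt 2, so these counts are not on the footing of the shares per promoter. The TATA box, CCAAT box and forkhead matches of Limch1 lie at its later starts, inside the gene. Fgf10 has its forkhead motif 11 bases upstream of a RefSeq start that lies inside the gene as GENCODE annotates it. Each match is a description of letters only.

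The 3 genes lie on different chromosomes in build GRCm38. Inmt spans chromosome 6 from 55170626 to 55175043, Itga8 chromosome 2 from 12106632 to 12301922 and Limch1 chromosome 5 from 66745827 to 67057158. All 10 members are annotated as protein coding. Antisense genes overlap Itga8 (E030013I19Rik, with 1.47% of the counts of Itga8) and Tcf21 (Gm10824, with 2.1% of the counts of Tcf21). The strand setting of the counting is not given in the sources used here, so reads of these genes and of their antisense partners cannot be told apart. Every other overlapping gene had under 0.4% of its member's counts.

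Fgfr4 encodes an FGF receptor. The day 14 lungs held 17.0, 19.4, 19.6 and 22.6 CPM, the vehicle lungs 30.6, 19.2, 23.6 and 26.6 CPM, and the nanoparticle lungs 26.6, 23.6, 22.6 and 28.0 CPM. The vehicle group overlapped day 14 through mouse 2 alone, and the lowest nanoparticle lung (22.62 CPM) was just above the highest day 14 lung (22.60 CPM). The log2 fold change was 0.35 in vehicle against day 14 (SE 0.13; edgeR adjusted p = 0.0975) and 0.36 in nanoparticle against day 14 (SE 0.13; edgeR adjusted p = 0.0742). Without vehicle mouse 2, these became 0.47 (edgeR adjusted p = 0.026) and 0.37 (edgeR adjusted p = 0.0346). The nanoparticle comparison also passed without day 14 mouse 4 (0.45; edgeR adjusted p = 0.045) and without vehicle mouse 1 (0.37; edgeR adjusted p = 0.0469). Removing day 14 mouse 2 or nanoparticle mouse 3 left both comparisons short of the threshold. The values were 0.36 and 0.37 without day 14 mouse 2 (edgeR adjusted p = 0.142 and 0.119). They were 0.36 and 0.42 without nanoparticle mouse 3 (edgeR adjusted p = 0.0848 and 0.052). Of 20 alternatives, 1 gained the call with vehicle and 5 with nanoparticles.

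The secreted signals of the set did not pass the test. Wnt2, a Wnt ligand made by lung mesenchyme, held 8.22, 8.82, 9.88 and 9.02 CPM at day 14, 14.3, 8.98, 10.3 and 12.4 CPM with vehicle, and 10.8, 13.7, 9.45 and 9.17 CPM with nanoparticles. The highest lung of each day 21 group was above all day 14 lungs, while the lowest was within the day 14 range. Its log2 fold change was 0.35 in vehicle against day 14 (SE 0.15; edgeR adjusted p = 0.143) and 0.27 in nanoparticle against day 14 (SE 0.15; edgeR adjusted p = 0.25). Over the 20 alternative analyses, these ranged from 0.24 to 0.46 and from 0.13 to 0.34. Fgf10, the ligand of the IIIb form of Fgfr2 that is required for lung budding, had 15.1 to 18.6 CPM at day 14, 16.5 to 19.9 CPM with vehicle and 16.3 to 21.1 CPM with nanoparticles. The 3 ranges of Fgf10 overlapped, and its log2 fold change was 0.13 (95% interval -0.07 to 0.33) with vehicle and 0.14 (95% interval -0.06 to 0.34) with nanoparticles.

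Npnt encodes nephronectin, a basement membrane protein and ligand of the integrin that contains alpha 8. The day 14 lungs held 836, 730, 821 and 956 CPM, the vehicle lungs 993, 889, 1046 and 1094 CPM, and the nanoparticle lungs 985, 1082, 718 and 1025 CPM. Nanoparticle mouse 3 was the lowest of all 12 libraries. The log2 fold change was 0.27 in vehicle against day 14 (SE 0.12; edgeR adjusted p = 0.165) and 0.19 in nanoparticle against day 14 (SE 0.12; edgeR adjusted p = 0.305). Without nanoparticle mouse 3, the second became 0.31 with an edgeR adjusted p of 0.0371. Leaving out day 14 mouse 2 lowered both, to 0.22 (edgeR adjusted p = 0.272) and 0.14 (edgeR adjusted p = 0.483).

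Pdgfra encodes the alpha receptor for platelet-derived growth factor and is a broad marker of lung fibroblasts. Its range was 164 to 262 CPM at day 14, 208 to 300.3 CPM with vehicle and 246 to 307 CPM with nanoparticles, and the ranges overlapped. The log2 fold change was 0.20 with vehicle (SE 0.14; edgeR adjusted p = 0.384) and 0.26 with nanoparticles (SE 0.14; edgeR adjusted p = 0.241). Day 14 mouse 2 was the lowest lung for Pdgfra, and without it these became 0.09 (edgeR adjusted p = 0.652) and 0.14 (edgeR adjusted p = 0.427). Tcf21, a basic helix-loop-helix transcription factor of lung mesenchyme, had 61.7 to 70.6 CPM at day 14, 55.1 to 88.9 CPM with vehicle and 65.1 to 95.2 CPM with nanoparticles. The vehicle lungs of Tcf21 spread to both sides of the day 14 range and the nanoparticle lungs beyond its top, with an SD of 14.9 and 14.1 CPM against 3.97 CPM at day 14. The log2 fold change of Tcf21 was 0.19 (edgeR adjusted p = 0.419) and 0.18 (edgeR adjusted p = 0.449). Without vehicle mouse 2, the first became 0.33 (edgeR adjusted p = 0.1), and over the 20 alternatives the second ranged from 0.04 to 0.25.

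Ces1d, a serine esterase that cleaves lipid and drug esters, had the smallest estimates of the 10. The day 14 lungs held 491, 419, 453 and 472 CPM, the vehicle lungs 499, 404, 524 and 498 CPM, and the nanoparticle lungs 460, 458, 444 and 571 CPM. The log2 fold change was 0.07 with vehicle (95% interval -0.14 to 0.27) and 0.08 with nanoparticles (95% interval -0.13 to 0.28). Without nanoparticle mouse 4, the highest lung, the second was -0.015, and without day 14 mouse 2 the values were 0.04 and 0.05. Ces1d belongs to a family of neighbouring gene copies, yet none of the 2266 stretches of 100 bases in its GENCODE transcripts occurs in another gene's transcripts. Of its 7 relatives, Ces1a, Ces1c and Ces1h had too few counts to test. Ces1b (0.25), Ces1e (0.19) and Ces1g (0.22) did not pass the test in vehicle against day 14 (log2 fold changes in parentheses; edgeR adjusted p = 0.655, 0.26 and 0.513). Ces1f, at 3.58 CPM at day 14 and 6.47 CPM with vehicle, rose by 0.85 on the log2 scale (SE 0.23; edgeR adjusted p = 0.0308), and by 0.80 with nanoparticles (SE 0.23; edgeR adjusted p = 0.0327). The Ces1f call was lost in 6 and 8 of 20 alternatives.

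**Figure D2:**
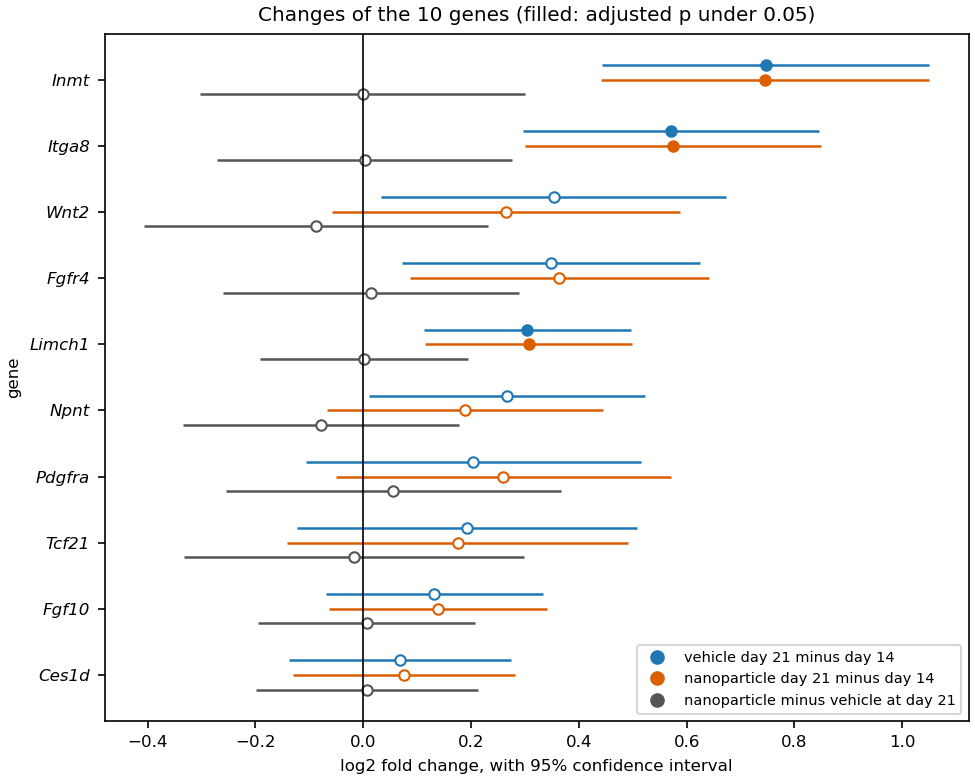
Log2 fold change (horizontal axis) of each of the 10 genes (vertical axis) in 3 comparisons, with 95% confidence intervals as lines; filled points have an edgeR adjusted p under 0.05. Inmt, Itga8 and Limch1 are filled in both comparisons with day 14, and the points of nanoparticle against vehicle lie between -0.09 and 0.06.

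No member differed between nanoparticle and vehicle lungs at day 21 in the test. Of the 10, 0 were called, and 0 of all genes (0%) were called higher and 0 (0%) lower by edgeR's quasi-likelihood test. The unadjusted p was under 0.05 for 762 of 17909 genes and for none of the members, and DESeq2 called 17 genes higher and 2 lower, none of them a member. Log2 fold changes ranged from -0.09 for Wnt2 to 0.06 for Pdgfra, and 6 of the 10 were above 0. This balance of signs rested on vehicle mouse 2. Without it, all 10 estimates were below 0, from -0.19 for Wnt2 to -0.03 for Limch1, and none was called. Groups did not overlap, with nanoparticle higher, for 0 of the 10, against 1.8% of all genes. The 95% interval was -0.30 to 0.30 for Inmt, -0.27 to 0.28 for Itga8 and -0.19 to 0.19 for Limch1. The widest was that of Wnt2, from -0.41 to 0.23. Differences inside these intervals cannot be resolved with 4 mice a group.

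Single mice were low for most of the members. Vehicle mouse 2 was the lowest of the vehicle group for all 10 genes. Day 14 mouse 2 was the lowest of its group for 7 of 10, and nanoparticle mouse 3 for 6 of 10. The mean of the 10 genes, each as log2 CPM minus its own mean over the 12 libraries, was -0.17 in vehicle mouse 2 against 0.17 to 0.22 in the other vehicle lungs. It was -0.37 to -0.08 at day 14 and -0.03 to 0.24 in the nanoparticle group, so vehicle mouse 2 lay inside the day 14 range. In nanoparticle mouse 3, the mean without Inmt was -0.07, yet Inmt, at 975 CPM, was the second highest of its group and Pdgfra, at 307 CPM, the highest.

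**Figure D3:**
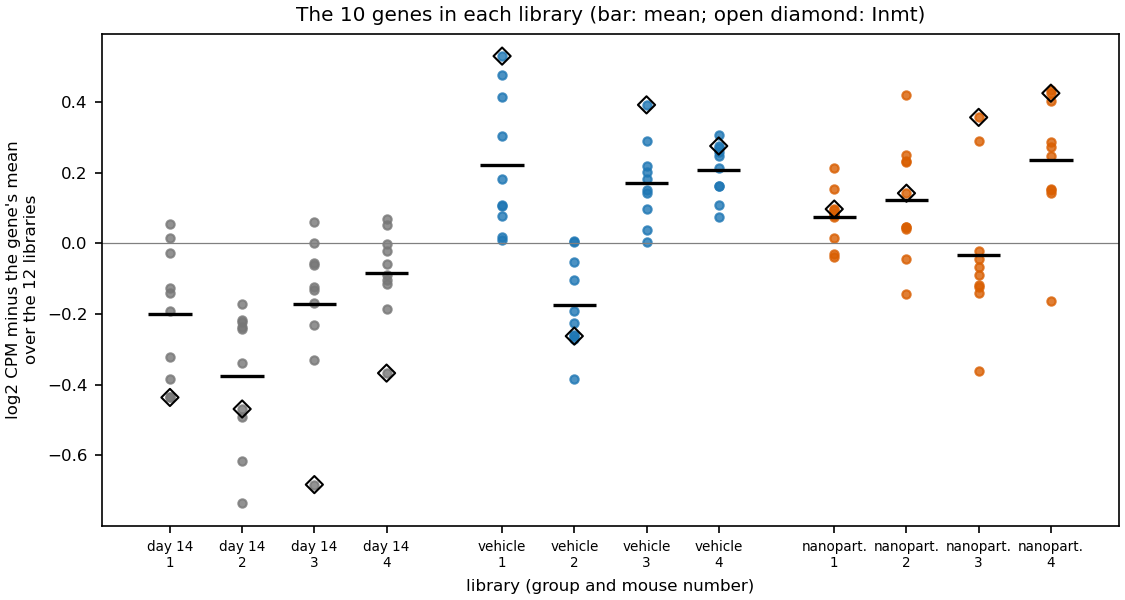
Log2 CPM of each gene minus its mean over 12 libraries (vertical axis), by library (horizontal axis, group and mouse number); points are the 10 genes, bars their mean, and the open diamond is Inmt. Vehicle mouse 2 has a mean of -0.17, below the other vehicle lungs at 0.17 to 0.22.

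Profiles over the 12 libraries were also compared gene by gene. The measure was the root mean square difference between standardised log2 CPM profiles, in SD units, over 14246 genes, and a smaller value is a closer likeness. It is a description without a test, since all genes share the same libraries, their depth and their groups. Inmt was closest to Gsn (0.287), which encodes the actin-severing protein gelsolin, then to Gstm1 (0.287) and Dpep1 (0.296). Itga8 was closest to Scn3a (0.217), Pla2r1 (0.233) and Svip (0.248), and Limch1 to Sntb1 (0.182), Rab12 (0.183) and Macf1 (0.223). Npnt was closest to C7 (0.191), which encodes a component of the terminal complement complex.

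Among the members themselves, Tcf21 and Ces1d each had the other at place 3 of the 14246 genes (0.376). Itga8 and Limch1 were also near each other (0.301), at place 16 and 21. By place, Pdgfra had the most distant nearest member: Limch1, at place 980 (0.741). By the difference itself it was Wnt2, whose nearest member, Fgfr4, was at place 193 (0.788). Tcf21 was closest to Tmem204 and Abca8a, Ces1d to Aldh1a1 and Gpr155, and Wnt2 to Fgf18, Myo10 and Adcy8. The nearest genes of Fgf10 were Anks1, Mpdz and Pde3a, those of Pdgfra Slmap, Samd4 and Tns1, and those of Fgfr4 Mcc, Col17a1 and Arhgef15.

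Other genes known from alveolar fibroblasts were called in both directions. Counts of the lists that follow are to be read against the shares of all genes called higher and lower, 3.79% and 6.51% with vehicle and 6.16% and 8.56% with nanoparticles. Of 14 such genes, 1 was called higher and 1 lower in vehicle against day 14, and 2 higher and 1 lower in nanoparticle against day 14. Col13a1, a transmembrane collagen that marks these cells, rose from 49.3 to 62.1 CPM with vehicle (log2 fold change 0.33; edgeR adjusted p = 0.00629) and to 59.5 CPM with nanoparticles (log2 fold change 0.27; edgeR adjusted p = 0.0118). Mfap4, an elastic fibre protein gene, fell from 861 to 555 CPM with vehicle (log2 fold change -0.63; edgeR adjusted p = 0.00213) and to 567 CPM with nanoparticles (log2 fold change -0.60; edgeR adjusted p = 0.00136). Macf1, a large cytoskeletal linker gene, had a log2 fold change of 0.37 (edgeR adjusted p = 0.0548) with vehicle and rose by 0.38 with nanoparticles (edgeR adjusted p = 0.0399), a call lost in 8 of 20 alternatives. The median log2 fold change of the 14 was 0.10 and 0.06. Their summed TPM was lower at day 21 without overlap: 2262 to 2360 at day 14, 2003 to 2180 with vehicle and 1818 to 2249 with nanoparticles. Mfap4 made up much of that sum, at 888 TPM on average at day 14, 592 with vehicle and 599 with nanoparticles. The sum itself averaged 2307, 2093 and 2057 TPM in the same order. Mfap4 alone thus fell by more than the sum did in both comparisons, and the other genes together did not fall on average. Of 12 transcription factor genes of lung mesenchyme, 11 were tested and 0 were called in either comparison (medians 0.12 and 0.10).

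Around the FGF members, 15 of 16 listed ligands, receptors and targets were tested. With vehicle, 2 were called higher and 3 lower, and with nanoparticles 3 higher and 3 lower. Fgfr2, which encodes the receptor that Fgf10 acts through, rose from 128 to 190 CPM with vehicle (log2 fold change 0.57; edgeR adjusted p = 0.00172) and to 184 CPM with nanoparticles (log2 fold change 0.52; edgeR adjusted p = 0.00116). Fgfr1, another receptor of the family, fell by 0.29 and 0.34 on the log2 scale (edgeR adjusted p = 0.00697 and 0.00217). The ETS factor genes Etv4 and Etv5, which are FGF targets, differed in sign. Etv4 fell by 1.51 and 1.62 on the log2 scale, from 3.73 CPM at day 14 (edgeR adjusted p = 0.00436 and 0.00237). Etv5 rose by 0.42 with vehicle (edgeR adjusted p = 0.0265), with an estimate of 0.33 with nanoparticles (edgeR adjusted p = 0.0521). Fgf2, a ligand gene, fell by 0.40 with nanoparticles (edgeR adjusted p = 0.0364). The Etv5 call with vehicle was lost in 6 of 20 alternatives and the Fgf2 call with nanoparticles in 11 of 20.

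Of 15 other Wnt genes, 2 were called higher and 3 lower in each comparison with day 14. Axin2, a target of the beta-catenin branch, rose by 0.33 and 0.31 on the log2 scale (edgeR adjusted p = 0.0339 and 0.0374), and the receptor gene Fzd7 rose by 0.38 and 0.27 (edgeR adjusted p = 0.00843 and 0.0264). The ligand genes Wnt5a (fell by 0.34 and 0.47; edgeR adjusted p = 0.0256 and 0.00403) and Wnt7b (fell by 0.50 and 0.52; edgeR adjusted p = 0.00732 and 0.00458) fell. In the 20 alternatives, the call was lost for Axin2 in 10 with vehicle and 9 with nanoparticles, for Wnt5a with vehicle in 7 and for Fzd7 with nanoparticles in 7. None of the 5 other PDGF ligand and receptor genes was called in either comparison.

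Of the 7 genes for the partner subunit and the ligands of integrin alpha 8, 0 were called higher and 2 lower in each comparison. The 2 were the matrix genes Fn1 (fibronectin), which fell by 0.92 and 0.96 on the log2 scale (edgeR adjusted p = 0.00727 and 0.00399), and Tnc (tenascin C), which fell by 0.88 and 1.05 (edgeR adjusted p = 0.0218 and 0.00751; the first lost in 5 of 20 alternatives). Both are also among the scar fibroblast genes below. Itgb1, the partner subunit, had 976 CPM at day 14, 948 CPM with vehicle and 938 CPM with nanoparticles.

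Scar fibroblast genes were called in the lower direction. Of 13, 0 were called higher and 9 lower with vehicle, and 0 higher and 11 lower with nanoparticles, with median log2 fold changes of -0.59 and -0.84. Col1a1, which encodes the alpha 1 chain of type I collagen, fell by 0.94 and 1.14 on the log2 scale (edgeR adjusted p = 0.00313 and 0.000758). The ratio of Inmt to Col1a1 in TPM was 3.04 to 5.01 at day 14, 6.79 to 17.4 with vehicle and 11.7 to 20.05 with nanoparticles; both genes were chosen with their changes known, so these ratios are a description only. The 10 alveolar fibroblast genes summed to 2027 to 2503 TPM at day 14, 2492 to 3603 with vehicle and 3016 to 3555 with nanoparticles. Without Inmt, the largest term, the sum was 1029 to 1378, 1282 to 1595 and 1247 to 1635 TPM, and these ranges overlapped. The sum of the 14 further genes given above was lower at day 21, but Mfap4 alone fell by more than that sum did. Vehicle mouse 2 had the lowest sum of all 10 genes among the 8 day 21 lungs, at 2492 TPM. It also had the highest scar sum of the 8, at 2885 TPM. Spp1 was the largest term of the scar sum. It averaged 1369 of 3918 TPM at day 14, 716 of 2360 with vehicle and 622 of 2098 with nanoparticles. The cells that made it were not tested, so the scar sum is not a measure of fibroblasts alone.

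**Figure D4:**
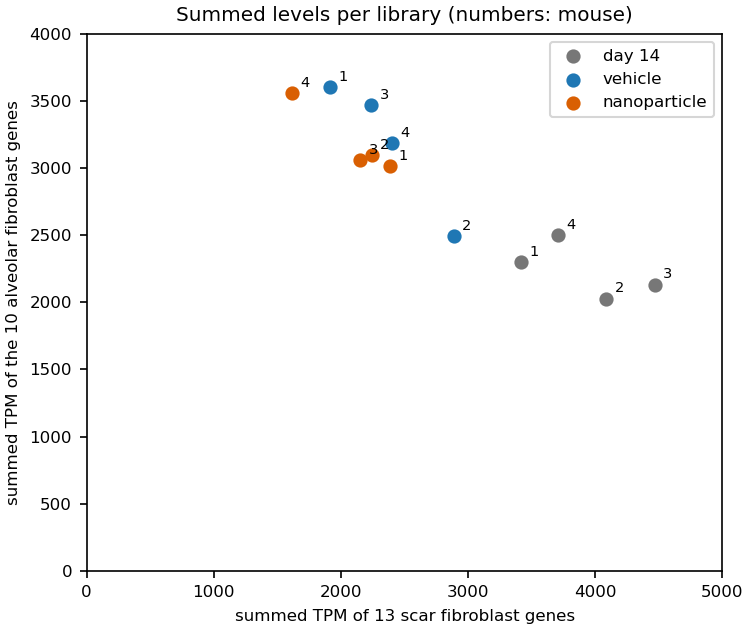
Summed TPM of the 10 alveolar fibroblast genes (vertical axis) against summed TPM of 13 scar fibroblast genes (horizontal axis), both from 0; points are lungs, coloured by group and numbered by mouse. The 4 day 14 lungs have scar sums of 3414 to 4468 TPM and the 8 day 21 lungs 1615 to 2885 TPM. Of the 8, vehicle mouse 2 is nearest to day 14. Inmt makes up 41.3% to 59.3% of the sum of the 10 genes.

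Markers of other cells also moved between day 14 and day 21, and their part in the change of the members was not tested. The summed TPM of 8 alveolar type 2 genes was 38785 to 44318 at day 14, 45499 to 52486 with vehicle and 45897 to 47699 with nanoparticles, with 2 of 8 genes called higher in each comparison and median log2 fold changes of 0.25 and 0.23, close in size to the members' 0.29 and 0.26. That of 5 cell division genes was 101 to 117 TPM at day 14, 32.6 to 62.7 with vehicle and 23.2 to 50.7 with nanoparticles, and all 5 were called lower in both. The sums of 8 alveolar type 1 genes (4692 to 4995 TPM at day 14, 4617 to 4694 with vehicle and 4341 to 4787 with nanoparticles) and of 9 capillary genes (1469 to 1749, 1630 to 2037 and 1648 to 2047 TPM) overlapped between groups in part or whole. Of the type 1 genes, 1 was called higher and 2 lower in each comparison (medians 0.06 and 0.05), and of the capillary genes 1 higher and 0 lower in each (medians 0.24 and 0.25, also close to the members). Overlap was also seen in the sums of 11 adventitial fibroblast genes (1670 to 1875, 1522 to 1687 and 1477 to 1904 TPM), 8 smooth muscle genes (448 to 639, 463 to 550 and 408 to 500 TPM) and 8 pericyte genes (324 to 396, 331 to 356 and 323 to 332 TPM). With vehicle and nanoparticles respectively, adventitial genes had 1 and 1 called higher and 0 and 3 lower, smooth muscle genes 0 and 2 lower, and pericyte genes 1 and 1 lower. The sums of 6 mesothelial genes were 107 to 149, 125 to 152 and 114 to 193 TPM, those of 7 inflammatory fibroblast genes 2548 to 2998, 2025 to 2225 and 1944 to 2952 TPM, and those of 10 leukocyte genes 11344 to 12450, 10812 to 11813 and 10120 to 14462 TPM. Of these, 0 mesothelial genes were called in either comparison, 2 inflammatory fibroblast genes were lower in both, and 2 leukocyte genes were lower with vehicle and 1, Ptprc, higher with nanoparticles. The median log2 fold change of the leukocyte genes was 0.02 with vehicle and 0.30 with nanoparticles. No gene of these lists was under 0.1 TPM on average in any group.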

How the data were processed

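Expected counts and TPM per gene for 12 whole-lung libraries were used as deposited. Per the submitters' processing notes, the tools were STAR 2.7.8a and RSEM 1.3.3 with build GRCm38, plus MultiQC 1.20, FastQC 0.11.8 and cutadapt 4.8; annotation release and strand setting are not given in the sources used here. In the authors' deposited table, TPM values are scaled per transcript length and library; they were used for levels between genes. The deposited expected counts were rounded to whole numbers, filtered by filterByExpr (minimum count 10, minimum total 15), scaled by TMM and fitted over all 12 libraries with edgeR 4.0.16 (R 4.3.3); 17909 genes were tested, and CPM values use the TMM library sizes. P-values are two-sided and adjusted by Benjamini-Hochberg over all genes tested, with a threshold of 0.05. Separate mice are the replicates. The fit was tested on simulated data. Lists were not tested as sets: their counts are read against the share of all genes called in the same comparison.

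Alternatives were DESeq2 1.42.0, RLE size factors, no low count filter, limma 3.58.1 on log2(TPM + 0.5) or log2(TPM + 0.1), a fit of the compared groups only, the mouse number as a block, and leaving out each library. The members and lists were chosen with earlier results of these data known. Genes named beyond the 10 were, per list and comparison with day 14, up to 4 past the threshold by adjusted p, the 3 nearest profiles of each member (mean log2 CPM of at least 1), and the Ces1 family; Itgb1 and Sftpc were added after their values were seen. Promoters came from RefSeq (GRCm38.p6) and gene positions from GENCODE M21 on GRCm38, in which all 10 gene identifiers were found.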

Additional observations from a re-analysis of the deposited data

Results flagged for a closer look

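Of 30 sets of 4 values (10 genes in 3 groups, CPM), 2 held a lung far from the other 3, where chance would flag about 1 in 20 sets. Limch1 in day 14 mouse 2 was 521 CPM, and its gap to the nearest lung made up 0.895 of the range of the group. Ces1d in nanoparticle mouse 4 was 571 CPM, with a gap of 0.873 of the range.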

How the results depend on the processing

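With 4 mice a group, 20 alternative analyses were run for each of 3 comparisons. In vehicle against day 14, 186 of 200 values of the members kept direction and side of the threshold, 13 lost the call and 1 gained it; in nanoparticle against day 14 these were 185, 8 and 6, and 1 changed sign (Ces1d, whose range with 1 library left out was -0.015 to 0.13). Inmt was called in all 20 of both comparisons, and Itga8 in all but limma on log2(TPM + 0.5) without a filter for vehicle (adjusted p = 0.0619). Fgfr4 in nanoparticle against day 14 also passed with DESeq2 (adjusted p = 0.0385). Leaving out 1 library gave 2 to 4 members called in either comparison, and limma without a filter gave 1 for vehicle. In nanoparticle against vehicle, 154 of 200 kept their sign and 46 changed it, with 0 called. The changes of sign lay near 0: Inmt 0.00074 (DESeq2), 0.029 (limma on TPM, 3 forms) and 0.013 (replicate block); Itga8 -0.0089, Ces1d -0.0043, Limch1 -0.0097 and Fgf10 -0.0049 (no filter); Itga8 -0.010 and Fgfr4 -0.025 or -0.026 (limma on TPM). With 1 library left out, the ranges were -0.14 to 0.099 for Inmt, -0.083 to 0.084 for Itga8, -0.15 to 0.036 for Npnt, -0.15 to 0.063 for Tcf21, -0.22 to 0.032 for Wnt2, -0.084 to 0.047 for Ces1d, -0.044 to 0.050 for Limch1, -0.066 to 0.062 for Fgf10, -0.042 to 0.12 for Pdgfra and -0.094 to 0.13 for Fgfr4.

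Counts over all genes moved more. Genes called higher and lower in vehicle against day 14 were 332 and 700 with limma on log2(TPM + 0.5), 326 and 669 on log2(TPM + 0.1), and 84 and 338 without a filter; DESeq2 called 1125 higher. In nanoparticle against day 14 the first 3 gave 600 and 984, 604 and 973, and 234 and 624, and the fit of the compared groups only gave 702 and 970. In nanoparticle against vehicle, DESeq2 called 17 and 2. Leaving out 1 library gave 212 to 897 higher and 492 to 1265 lower in vehicle against day 14, and 495 to 1358 and 837 to 1594 in nanoparticle against day 14; day 14 mouse 3 gave the lowest counts called higher. The cause was not tested.

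The mouse numbers recur in each group. Same-numbered libraries had correlations of deviations of -0.037, 0.15, 0.0038 and 0.014 between vehicle and day 14, -0.056, 0.095, 0.038 and 0.065 between nanoparticle and day 14, and 0.11, -0.041, -0.017 and -0.074 between nanoparticle and vehicle. As they were not all over 0.1 in any of these, the numbers were not taken to pair the mice. With the number as a replicate block, 2 members were called in vehicle against day 14 and 3 in nanoparticle against day 14, with 622 and 1025 genes called higher, and Limch1 lost its call with vehicle (adjusted p = 0.0589).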
